A study of Rattus norvegicus with 2 samples.

Results

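The genes described here are Acta1 (ENSRNOG00000017786), Actc1 (ENSRNOG00000008536) and Ankrd1 (ENSRNOG00000018598), 3 of the 20174 genes on a rat oligonucleotide array. They were chosen by name as the α-actins of striated muscle and a load-responsive muscle gene, with earlier results of these data known. The symbols came with the list of IDs; the array files hold IDs without symbols. Each gene had 1 spot on the array. Left ventricular (LV) RNA was taken at the stage of heart failure, at an age of about 13 weeks, from male Dahl salt-sensitive (DS) rats, a strain that becomes hypertensive on a high-salt diet. Each of 3 groups gave 1 pool of RNA from 3 rats. These were the control group [NS (-), 0.3% NaCl diet, no treatment], the heart failure group [HS (-), 8% NaCl diet, no treatment] and the treatment group [HS (ch+), 8% NaCl diet and chaetocin in dimethyl sulfoxide, injected intraperitoneally at 0.25 mg/kg, 2 doses a week between the ages of 6 and 13 weeks]. Whether untreated rats received the solvent is not given in the sources used here. Chaetocin is a fungal inhibitor of the histone H3 lysine 9 methyltransferase SU(VAR)3-9. The paper adds that its specificity may be low and that the enzyme it inhibits in this model remains to be determined. On both arrays the red dye, Cy5, marked the HS (-) pool. The green dye, Cy3, marked NS (-) on array 1 and HS (ch+) on array 2. Neither comparison had a second array or a dye swap, so no test across replicates could be made, and every value below describes these 3 pools.

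Actin and myosin filaments form the sarcomere, the contractile unit of striated muscle. Actc1 encodes cardiac α-actin, the main actin of the thin filament in the adult ventricle. Acta1 encodes skeletal α-actin, which the rodent heart makes before and shortly after birth and makes again when the ventricle is overloaded. Ankrd1 encodes cardiac ankyrin repeat protein, which binds titin in the sarcomere, is also found in the nucleus and is known to be induced by stretch and pressure overload. Serum response factor binds the CArG box of many muscle genes, and TEAD factors bind the M-CAT element.

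The start regions of the actin genes are shown because both are known targets of serum response factor and their array values differed. No promoter was available for Ankrd1, so its start region is not shown. The RefSeq table used here, of the GRCr8 assembly, holds 1 promoter for Acta1 and 1 for Actc1, each from 250 bases before to 50 bases after the annotated start, printed 5′ to 3′ along the gene. Capitals mark exact matches on either strand to a CArG box, to the M-CAT element CATTCCT and to the TATA box TATAAA. The Acta1 window is chr19:68784145-68784444 and the Actc1 window is chr3:121271778-121272077, both on the minus strand.
Acta1: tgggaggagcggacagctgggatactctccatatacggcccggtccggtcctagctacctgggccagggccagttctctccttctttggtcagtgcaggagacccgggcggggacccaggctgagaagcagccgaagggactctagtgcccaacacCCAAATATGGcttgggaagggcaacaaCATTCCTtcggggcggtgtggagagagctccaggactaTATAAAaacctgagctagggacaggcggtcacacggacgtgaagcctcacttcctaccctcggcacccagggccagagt
Actc1: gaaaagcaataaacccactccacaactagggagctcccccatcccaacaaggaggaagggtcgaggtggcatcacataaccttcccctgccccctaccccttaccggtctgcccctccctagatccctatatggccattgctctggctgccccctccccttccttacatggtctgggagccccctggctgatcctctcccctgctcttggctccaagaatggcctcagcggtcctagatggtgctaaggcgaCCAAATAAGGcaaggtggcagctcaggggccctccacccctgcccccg

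In the Acta1 window the CArG box lay from -94 to -85, the M-CAT element from -67 to -61 and the TATA box from -29 to -24, counted from the annotated start. No match overlapped another. The Actc1 window held 1 match, a CArG box from 3 to 12 bases into the annotated transcript, and no exact M-CAT or TATAAA. This window ends too soon after its CArG box to reach a TATA box at the spacing seen in Acta1. The search therefore cannot tell whether Actc1 has a TATA box further on. Whether the annotated start of Actc1 is used in the ventricle was not tested. Of 33469 promoters of the same length in the table, 1.64% held a CArG box, 5.17% an M-CAT element and 14.2% a TATA box. These matches describe the sequences only.

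All 3 spots were bright, and none was saturated. The signal of a spot is its median intensity minus the mean of the blank spots of that dye. Acta1 had a signal of 7059 in NS (-) and 27873 in HS (-) on array 1, and of 25444 in HS (-) and 25480 in HS (ch+) on array 2. Its NS (-) signal was the lowest of its 4 signals, and the others were close together before the dyes were centered on each other. Actc1, the cardiac α-actin, had a signal of 23174 in NS (-) and 38425 in HS (-) on array 1, and of 41698 in HS (-) and 26874 in HS (ch+) on array 2. Both HS (-) readings of Actc1 lay above both other pools. Ankrd1 had a signal of 8695 in NS (-) and 37960 in HS (-) on array 1, and of 37488 in HS (-) and 21139 in HS (ch+) on array 2. Its order was HS (-) above HS (ch+) above NS (-).

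**Figure D1:**
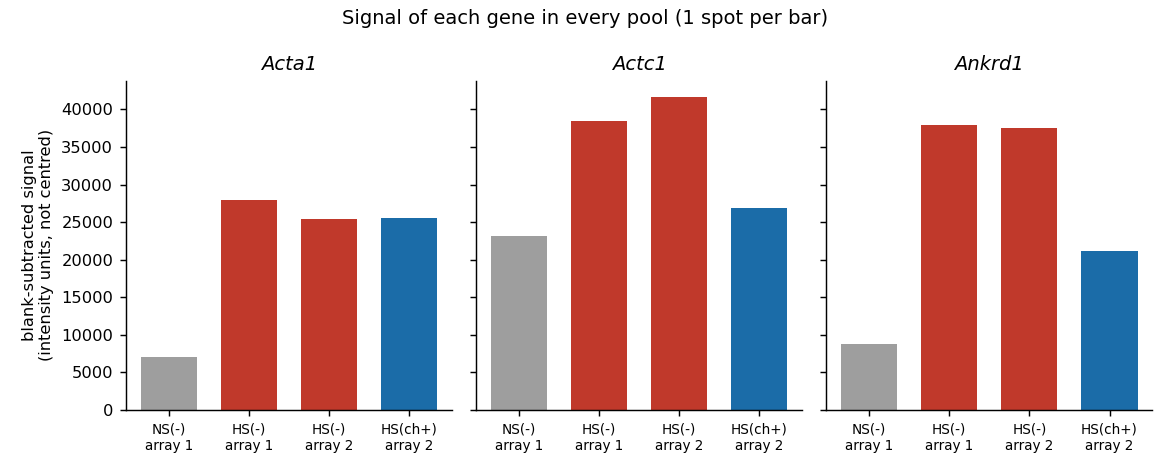
Blank-subtracted signal in intensity units for Acta1, Actc1 and Ankrd1, with 1 bar per spot, in NS (-) and HS (-) on array 1 and HS (-) and HS (ch+) on array 2, before centering of the dyes. The NS (-) bar of Acta1 (7059) and of Ankrd1 (8695) is far below the HS (-) bars, whereas that of Actc1 (23174) is not; bars of different genes come from different probes and are not to be compared in height.

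The bright spots place these genes among the highest signals of the ventricle. In HS (-) on array 1, Actc1 ranked 12th, Ankrd1 13th and Acta1 22nd from the brightest of 20174 genes. In NS (-), Actc1 ranked 25th, Ankrd1 92nd and Acta1 116th. Such ranks set spots of different probes beside each other and are not molar levels. The cardiac muscle label of the tissue was met by Myh6, the α-myosin heavy chain gene of the rodent ventricle, whose signal was 65487 in NS (-), at the limit of the scanner, 11788 and 15969 in HS (-), and 32990 in HS (ch+). In pooled LV tissue, a change in the number of cells of a type and a change in RNA per cell cannot be told apart. The probe sequences were not in the files used here. Acta1 and Actc1 are closely related genes, and how far their probes share RNA was not tested.

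HS (-)/NS (-) asked which genes differed between the failing and the control ventricle. Acta1 and Ankrd1 were several-fold higher in HS (-), while Actc1 stood below a 2-fold difference. Ratios were taken within a spot and centered on the median of the array. HS (-)/NS (-) was 4.44 for Acta1, 4.91 for Ankrd1 and 1.86 for Actc1, or 2.15, 2.29 and 0.90 on the log2 scale. A total of 4127 genes had both ratios and reached a signal of 100 in each HS (-) reading. Of these, 172, or 4.17%, had a ratio over 2, and 2 of the 3 genes did. Among these 4127 genes, 50 had a higher ratio than Ankrd1, 57 a higher ratio than Acta1 and 206 a higher ratio than Actc1. The median over the 4127 genes was 0.978. The ratio of Actc1 passed 2 in 2 of 9 other settings, at 2.49 without background subtraction and at 2.13 after loess.

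HS (ch+)/HS (-) asked which genes differed with chaetocin on the same diet. Ankrd1 and Actc1 were lower with chaetocin, past the ratio of 0.714 that is the inverse of 1.4, and Acta1 was not past it. The ratio was 0.434 for Ankrd1, 0.496 for Actc1 and 0.771 for Acta1, or -1.20, -1.01 and -0.37 on the log2 scale. Of the 4127 genes, 190, or 4.60%, had a ratio under 0.714. A lower ratio than that of Ankrd1 was found in 35 genes, than that of Actc1 in 49 genes and than that of Acta1 in 348 genes. The direction of Acta1 rests on the centering, since its Cy3 and Cy5 signals on array 2 were nearly equal. Its ratio was 1.001 without centering and 1.06 when the background value recorded beside each spot was subtracted, settings in which the median of the 4127 genes was 1.32 and 1.20, so that Acta1 lay below that median in both.

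The ratio on array 2 also varied with brightness. In 57 genes, all 3 members among them, each HS (-) reading reached 10000. Of these, 33.3% had HS (ch+)/HS (-) under 0.714, and their median ratio was 0.788 with quartiles of 0.660 and 0.971. The Acta1 ratio of 0.771 was close to that median, whereas the ratios of Actc1 and Ankrd1 lay below the lower quartile. In the same 57 genes, 19.3% had HS (-)/NS (-) over 2, with a median of 1.06 and an upper quartile of 1.43, which all 3 genes exceeded. A minimum set on HS (-) favors genes that are high in that pool. Loess fits the ratios of each array to brightness. After loess, HS (ch+)/HS (-) was 0.785 for Acta1, 0.510 for Actc1 and 0.443 for Ankrd1. HS (-)/NS (-) was then 5.02, 2.13 and 5.56 in the same order. Beyond such settings, the part of brightness in these ratios was not tested.

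HS (ch+)/NS (-), the product of both ratios, sets 2 pools in the same dye against each other. With chaetocin, Acta1 was 3.42 times and Ankrd1 2.13 times the NS (-) level, whereas Actc1 was 0.925 of it, a log2 difference of -0.11. The ratio of Ankrd1 was over 2 in 8 of 10 other settings, the exceptions being 1.87 with the Cy3 channels set against each other and 1.97 after Aquantile. Of the 4127 genes, 107, or 2.59%, had a ratio over 2 here, and 36 had a higher ratio than Acta1, 90 than Ankrd1 and 2701 than Actc1. On the log2 scale, the difference with chaetocin amounted to 17.4% of the HS (-) rise for Acta1, to 52.4% for Ankrd1 and to 112% of the HS (-) difference for Actc1. Over the 172 genes with HS (-)/NS (-) over 2, this share had a median of 38.5% with quartiles of 23.9% and 54.0%. The share of Acta1 was not stable: it was 36.1% with the HS (-) readings exchanged, where the median of the raised genes was 35.9%, and -4.82% with the spot background subtracted, where their lower quartile was 6.11%. Acta1 lay below the lower quartile of the same setting here and in 8 of 9 other settings, the exception being the exchanged readings. Ankrd1 lay within the quartiles here and in 8 of 9 settings and above them, at 65.5%, with the readings exchanged. The deposited table, which repeats the reported values, is among the settings counted for both genes. Both ratios contain the HS (-) pool, and an error in that pool enters both. Of these 172 genes, 113 had HS (ch+)/HS (-) under 0.714, as Ankrd1 had, and 59 did not, as Acta1 did not.

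**Figure D2:**
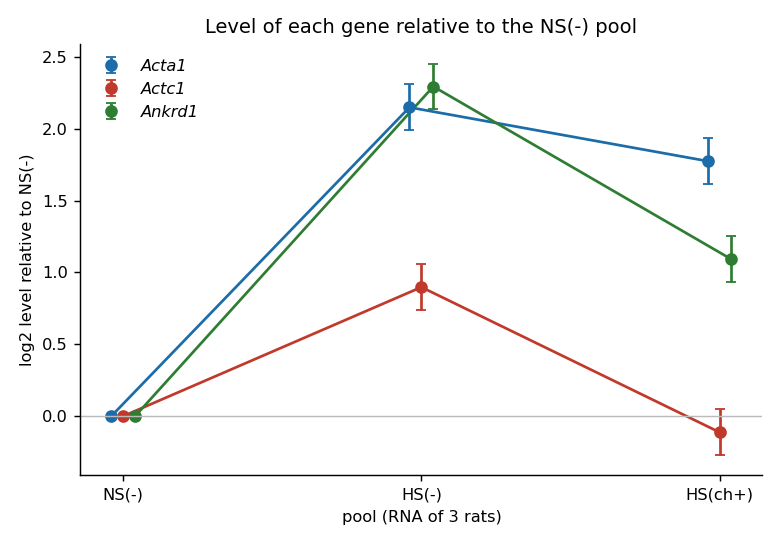
Log2 level relative to NS (-) in the 3 pools for Acta1, Actc1 and Ankrd1, from the centered ratios, with bars of 1 SD (0.16) of the repeated HS (-) readings over 4127 genes, which hold no difference between rats. The bars do not measure the error of the product of both ratios shown for HS (ch+). Acta1 and Ankrd1 are together in HS (-), at 2.15 and 2.29, and apart in HS (ch+), at 1.78 and 1.09, while Actc1 goes from 0.90 to -0.11.

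The HS (-) pool was read in Cy5 on both arrays, which gave the only repeated measurement. Over the 4127 genes the log2 difference between the readings had an SD of 0.16, a 1.12-fold difference, around a median of -0.15. This SD comes from reading 1 pool in 1 dye and holds no difference between rats or between dyes, so a multiple of it is no test of a difference between pools. Relative to this median, the HS (-) reading on array 1 exceeded that on array 2 by 0.03 for Actc1, by 0.16 for Ankrd1 and by 0.28 for Acta1. The Actc1 readings thus differed by much less than the SD and those of Ankrd1 by about 1 SD, and 92.7% of genes repeated more closely than Acta1. Over the 57 genes of at least 10000 the SD was 0.15. The HS (-)/NS (-) log2 ratios of the 3 genes were 13.5 (Acta1), 5.62 (Actc1) and 14.4 (Ankrd1) times the SD. The HS (ch+)/HS (-) log2 ratios were -2.34, -6.32 and -7.53 times the SD in the same order. This SD does not measure the error of HS (ch+)/NS (-), a product of ratios from both arrays. The HS (ch+)/NS (-) log2 ratio of Actc1 was -0.70 times the SD. Over the 10 other settings that ratio ran from 0.890 to 1.14, above 1 in 5 of them. Leaving out the centering, 1 of these 5, shifts all genes alike. When the HS (-) readings of the arrays were exchanged, HS (-)/NS (-) of Acta1 was 3.62 and its HS (ch+)/HS (-) was 0.629, past the ratio of 0.714. Its HS (ch+)/HS (-) passed that ratio in 2 of 9 other settings, the other being that without background subtraction, at 0.615. The smaller spread of repeated spots on 1 array, an SD of the log2 ratio from 0.059 to 0.064 over the 24 spots of each of 2 positive controls on each array, was measured at lower signals of 2380 to 5044.

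**Figure D3:**
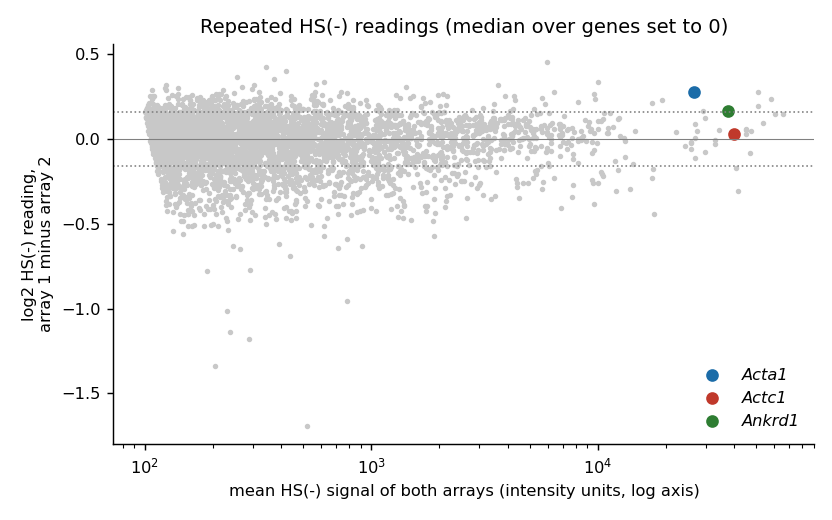
Log2 difference between the HS (-) readings of array 1 and array 2, with the median over genes at 0, against the mean HS (-) signal on a log axis, with 1 point per gene for 4127 genes and dotted lines at 1 SD (0.16). Actc1 (0.03) is near 0, Ankrd1 (0.16) is at the upper line and Acta1 (0.28) is above it.

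The actins differed from each other on both arrays. On the log2 scale, HS (-)/NS (-) of Acta1 exceeded that of Actc1 by 1.25, a 2.38-fold unequal change, and HS (ch+)/HS (-) of Acta1 exceeded that of Actc1 by 0.64, a 1.55-fold unequal change. Their HS (ch+)/NS (-) ratios were 1.89 apart, or 3.70-fold. In this comparison no level of one probe is set against the other, and centering cancels. Acta1 stood above Actc1 in each of the 9 other settings run for each of the first 2 ratios and in each of the 10 run for HS (ch+)/NS (-). Among these settings, the deposited table repeats the reported values, and leaving out the centering shifts all genes alike. Neither could change this order. Over the settings in which the difference was recalculated, it ranged from 1.002 to 1.64 for HS (-)/NS (-) and from 0.39 to 0.86 for HS (ch+)/HS (-).

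Ankrd1 and Acta1 had similar HS (-)/NS (-) ratios, 0.14 apart on the log2 scale, less than the SD of the repeat. That SD does not measure the error of a difference between genes and is given only as a scale. In 1 of 9 settings, loess within blocks, Acta1 was the higher. For HS (ch+)/HS (-), the log2 ratio of Ankrd1 minus that of Acta1 was -0.83, and Ankrd1 was the lower in all 9 settings. The same difference between Ankrd1 and Actc1 was -0.19, about 1 SD, with Ankrd1 the lower in all 9 settings. In HS (ch+)/NS (-) the order Acta1, Ankrd1, Actc1 from the highest was found in all 10 settings. The deposited table and the setting without centering, counted in each case, could not change the orders given here.

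**Figure D4:**
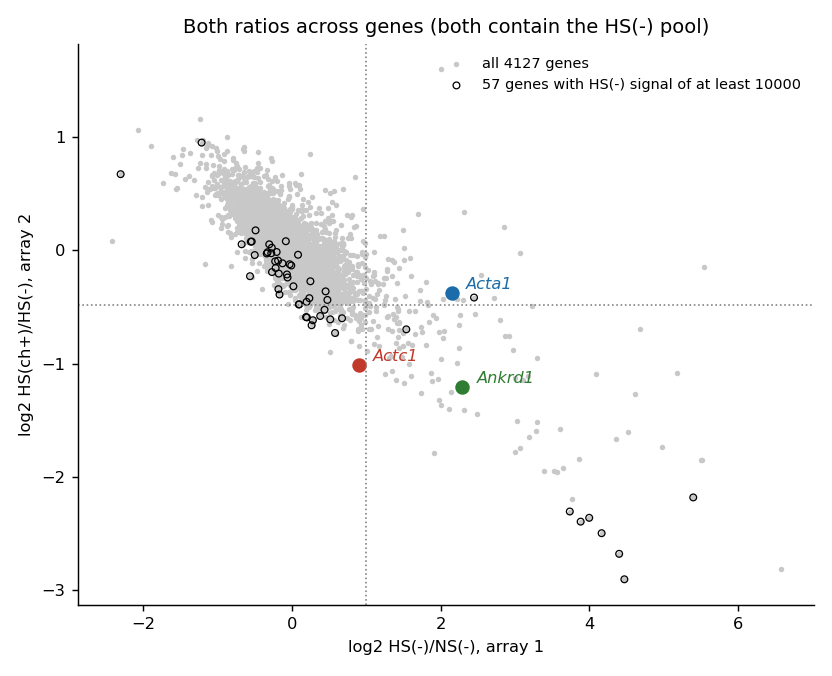
Log2 HS (-)/NS (-) on array 1 against log2 HS (ch+)/HS (-) on array 2, with 1 grey point per gene for 4127 genes, black circles for the 57 genes that reached 10000 in each HS (-) reading, and dotted lines at ratios of 2 and 0.714. Ankrd1 is past both lines, Acta1 (2.15, -0.37) is past the line for HS (-)/NS (-), and Actc1 (0.90, -1.01) is past the line for HS (ch+)/HS (-). Both axes contain the HS (-) pool.

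The gene nearest to each member was sought by the Euclidean distance over both log2 ratios, measured on 3 pools, among the 4127 genes. For Acta1 it was ENSRNOG00000021015, at a distance of 0.07, with ratios of 4.59 and 0.747 and a lower HS (-) signal of 304 on array 1. For Ankrd1 it was ENSRNOG00000009311, at 0.17, with ratios of 4.40 and 0.419 and an HS (-) signal of 384. The gene nearest to Actc1 lay at 0.17, with ratios of 2.02 and 0.539 and an HS (-) signal of 5442. No member was the nearest gene of another, and the distances were 0.84 between Acta1 and Ankrd1, 1.404 between Acta1 and Actc1 and 1.410 between Actc1 and Ankrd1. Of 49 genes listed for the actin paralogs, the ankyrin repeat family, their partners and regulators, the sarcomere and the load response, 1, Myh6, could be paired with an ID of the array, so the other genes of the pathway were not analysed here.

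The intensities of the brightest spots were recorded in another form than the rest. The file headers relate the scan at the first gain to those at 2 others. In Cy5 every spot from 29246 upward on array 1 and from 29150 upward on array 2 held a whole number, meaning that all decimals in the file were 0, and every dimmer spot, up to 27898 and 28871, had other decimals. The HS (-) values of Actc1 and Ankrd1 on both arrays were whole numbers, from 37514 to 41724, whereas all other values of the 3 genes held fractions. Whole numbers made up 21 of the Cy5 spots on array 1 and 22 on array 2. The HS (-) spot of Acta1 on array 1, at 27898, was the brightest Cy5 spot there that held a fraction. The part of this in the ratios of the 3 genes was not tested.

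**Figure D5:**
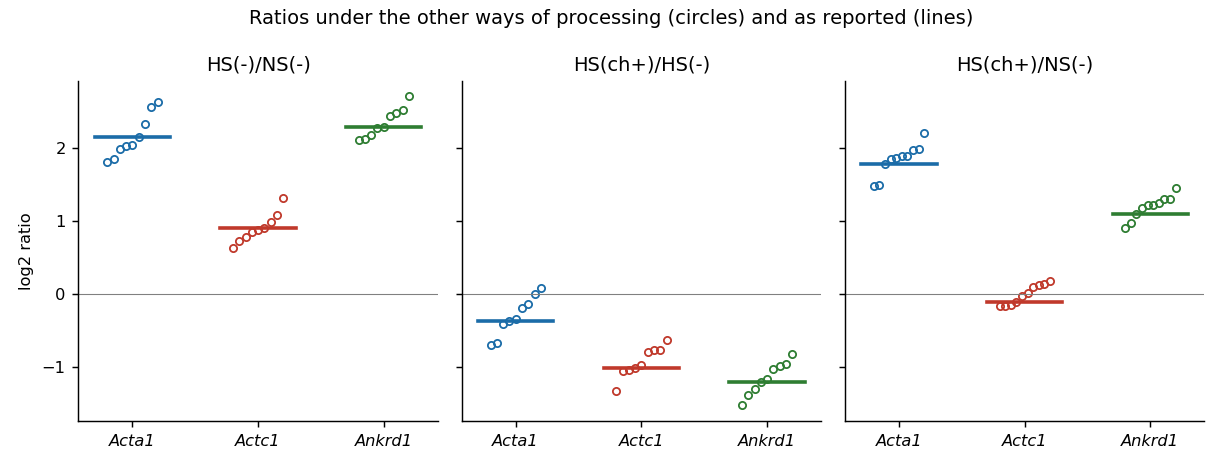
Log2 ratio of Acta1, Actc1 and Ankrd1 in the 3 comparisons as reported (line) and under 9 other settings (10 for HS (ch+)/NS (-)), with 1 circle per setting placed in order of size. For HS (-)/NS (-) all circles lie above 0; for HS (ch+)/HS (-) those of Actc1 and Ankrd1 lie below 0 and those of Acta1, from 0.615 to 1.06 as ratios, reach across it; for HS (ch+)/NS (-) those of Actc1 lie on both sides of 0.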

How the data were processed

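RNA pools of 3 rats per group were compared on 2 two-color arrays (rat oligonucleotide chip, TORAY). The authors deposited scanner intensity values, the median of each spot and a background value beside it in Cy5 and Cy3, from scans at 3 gains. The authors also deposited a table of log2 ratios. Set against the intensities, these were found to be Cy3 over Cy5, centered on the median over genes and 521 quality control spots (subtracted medians of 0.17 and 0.38; deposited medians of 0.0020 and 0.0010). The scanner and its software are not given in the sources used here.

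The mean of 4553 blank spots, without the highest and lowest 5%, was subtracted from each channel. Spots within 2 SD of it in either channel had no ratio, and 1 spot flagged on array 2 was left out. The largest gap between these log2 ratios and the deposited table was 2.7e-05. The minimum HS (-) signal of 100 was applied to both arrays. No p-value was calculated. The precision is limited by the number of arrays.

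The alternatives were other background corrections, loess (limma 3.58.1, R 4.3.3), normexp with an offset of 50, loess within the 48 blocks, no centering, the deposited table, 50 added to each signal, the HS (-) reading of the other array, Aquantile, other signal minimums and, added after the data had been seen, genes of at least 10000. The processing was tested on simulated data with a constant difference between the dyes. That simulation held no dependence of the ratio on brightness and no change in how bright spots were recorded. It therefore does not cover these features of the bright spots. Calculations used Python 3.11.15, numpy 2.4.6, pandas 2.3.3 and matplotlib 3.10.9.

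The members, lists and tests were chosen with earlier results of these data known. The genes named are the 3 members, the gene nearest to each by both log2 ratios (at most 2 raised IDs) and any listed gene paired with an ID. The study's gene table paired 50 IDs with names. Of the 20174 IDs of the array, 0 were in the RefSeq table (GRCr8), which was matched by symbol. No coordinates of probes are given, since the build behind the IDs is not stated.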

Additional observations from a re-analysis of the deposited data

How the results depend on the processing

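Of the values recalculated under other settings, 99 moved by less than 1 SD of the HS (-) repeat (for percentages, by less than 1.5 times) and 63 moved further. The 99 include the values of the deposited table, which came from the same processing and so could not move. The other 4 of the recalculated values changed sign, with ratios taken on the log2 scale. All were of Acta1. Its HS (ch+)/HS (-) was 1.06 with the spot background subtracted and 1.001 without centering. The share of its rise undone was -4.82% and -0.10%. In these settings the median HS (ch+)/HS (-) of the 4127 genes was 1.20 and 1.32, so Acta1 lay below it in both. HS (ch+)/NS (-) of Actc1, at 0.925 a log2 difference smaller than the SD of the repeat, is counted by size. This is a rule of counting, since that SD does not measure the error of this product. The ratio of Actc1 crossed 1 in 5 settings: loess, loess within blocks, no centering, 50 added (1.009) and Aquantile. Leaving out the centering shifts all genes alike, so it does not change the place of Actc1 among them. With 50 added, the median over the 4127 genes was 0.924 for HS (-)/NS (-) and 1.16 for HS (ch+)/HS (-). As reported, these medians were 0.978 and 1.02. In HS (-)/NS (-) the 3 genes kept their direction in all 9 settings. Causes were not tested. Each ratio already pairs the pools within a spot. With 1 pool per group, no test across replicates could be made, and no setting leaves out a replicate. The scan at another gain was not run, since 1 value per spot is given. Depth is not defined for arrays; all member signals were far above the blanks.

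With the spot background, HS (-)/NS (-) was 3.50 for Acta1 and 1.55 for Actc1, HS (ch+)/HS (-) was 0.584 for Actc1 and 0.488 for Ankrd1, the actins differed in log2 HS (ch+)/HS (-) by 0.86, and 5.68% of genes had HS (ch+)/NS (-) over 2. Without background subtraction, HS (-)/NS (-) was 5.90 (Acta1), 2.49 (Actc1) and 6.53 (Ankrd1), HS (ch+)/HS (-) was 0.615, 0.396 and 0.346, and 15.3% of genes had HS (ch+)/HS (-) under 0.714. After loess, HS (-)/NS (-) was 5.02, 2.13 and 5.56 in the same order, and HS (ch+)/NS (-) was 3.94, 1.08 and 2.47. With normexp and loess, HS (ch+)/HS (-) of Acta1 was 0.878, HS (-)/NS (-) of Ankrd1 was 5.74 and the actins differed in log2 HS (ch+)/HS (-) by 0.86. With loess within blocks, HS (-)/NS (-) of Acta1 was 6.17, HS (ch+)/HS (-) was 0.574 for Actc1 and 0.506 for Ankrd1, HS (ch+)/NS (-) was 4.63, 1.14 and 2.74 for the 3 genes, and the actins differed in log2 by 1.64 for HS (-)/NS (-) and 0.39 for HS (ch+)/HS (-). Without centering, HS (-)/NS (-) was 3.95, 1.66 and 4.37, HS (ch+)/HS (-) was 0.644 for Actc1 and 0.564 for Ankrd1, and HS (ch+)/NS (-) was 3.95, 1.07 and 2.46. With 50 added, HS (ch+)/HS (-) was 0.911, 0.587 and 0.514.

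With the HS (-) readings exchanged, Acta1 had 3.62 and 0.629 for the first and second ratio, Ankrd1 had 4.33 and 0.383, and the actins differed by 1.002 and 0.39 in log2. With the Cy3 channels set against each other, HS (ch+)/NS (-) was 2.78 for Acta1 and 1.87 for Ankrd1, and the actins differed by 1.64 in log2. With Aquantile, it was 2.82 for Acta1 and 1.098 for Actc1, and the actins differed by 1.36 in log2. A signal minimum of 0 gave 8.45% of genes with HS (ch+)/HS (-) under 0.714. A minimum of 100 in all 4 channels gave 2.29% with HS (-)/NS (-) over 2 and 1.35% with HS (ch+)/NS (-) over 2. In genes of at least 10000, a set chosen after seeing the data, the shares were 19.3%, 33.3% and 17.5% for the 3 ratios.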

Other observations

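The background value beside a spot, as a share of the spot, differed between these genes. In HS (-) on array 1 it was 36.6% of the spot for Acta1, 43.6% for Actc1 and 12.2% for Ankrd1, and on array 2 it was 45.5%, 47.6% and 21.2%. In Cy3 it was 21.2% (Acta1), 33.0% (Actc1) and 12.96% (Ankrd1) for NS (-), and 30.5%, 42.9% and 18.2% for HS (ch+). Subtracting it in place of the blanks moved HS (-)/NS (-) of Acta1 from 4.44 to 3.50 and left that of Ankrd1 at 4.86 against 4.91. Why the backgrounds of the actin spots were higher was not tested.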
